A study of Homo sapiens with 9 samples.

Results

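The collagen gene family was taken as every row of the count table that maps to a protein-coding gene whose symbol reads COL, a number, A and a number, such as COL6A3. The rule found 44 genes among 60448 rows, and 25 of them held enough reads to enter the test across 15019 genes. The cells carry the label Huh7, a human liver cancer line, and according to the labels were grown in DMEM. Of 9 RNA sequencing libraries, 3 came from the OPA1 knock-down set N_30, 3 from the knock-down set N_28 and 3 from control cells. OPA1 fuses the inner membranes of mitochondria, and the series knocks it down in cells labelled Huh7. The labels state that the knock-down was made with lentivirus, and control libraries carry that treatment text too. The names N_28 and N_30 are not explained. The labels do not name separate cultures or clones behind the 3 libraries of a group, so each p-value covers the spread among libraries alone, and that spread may be technical.

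Collagens are extracellular matrix proteins built from chains that wind around each other in a helix, for which every chain carries glycine at regular steps. Fibrillar types such as I, III, V and XI form the banded fibrils that give tissue its strength, type IV forms the sheet of basement membranes, and type VI forms beaded filaments between them. Fibril-associated types decorate fibrils, transmembrane types sit in the cell surface, and the multiplexin type XVIII lies in basement membranes and releases endostatin. In the liver, fibrillar collagens are made mainly by activated stellate cells and build up in fibrosis, while hepatocytes are a known source of type XVIII.

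Depth ran from 16476389 to 22400589 counts in N_30, from 18316731 to 22863328 in N_28 and from 19510555 to 22164035 in control libraries. Levels are given as CPM, counts scaled to a common library size of 1e6 with factors from the trimmed mean of M values, and as CPM per kilobase of transcript where genes are compared with each other. OPA1 itself stood at 63.3 to 65.9 CPM in N_30, 53.3 to 57.8 CPM in N_28 and 82.8 to 92.9 CPM in control libraries, so every knock-down library lay below every control library. Against control it fell by 0.46 on the log2 scale (SE 0.06, adjusted p = 0.00221) in N_30 and by 0.68 (SE 0.06, adjusted p = 1.38e-05) in N_28. The sets differed in OPA1 too, which was higher in N_30 than in N_28 by 0.21 (SE 0.06, adjusted p = 0.0265). Tests were edgeR's quasi-likelihood tests, with p adjusted by Benjamini and Hochberg's method over all genes tested and called under 0.05. Defining markers of the labelled cell type were near 0, so these genes do not bear out the label, and the identity of the cells was not tested. Summed over 6 hepatocyte genes the level was 1.21 to 2.71 CPM in N_30, 0.306 to 0.626 CPM in N_28 and 0.715 to 1.37 CPM in control, and APOB had no reads in any library.

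Because collagens are typical of fibroblasts and stellate cells, 7 markers of those cells were read beside them. LUM had no reads, DCN at most 2 counts, PDGFRA at most 3, THY1 at most 4 and PDGFRB at most 7 per library. ACTA2 stayed at 31 counts or fewer. RGS5, a signalling regulator known from pericytes, was the exception, at 58.3 to 90.8 CPM in N_30, 28.0 to 31.7 CPM in N_28 and 62.8 to 90.7 CPM in control. It therefore set the summed level of the list, which was 59.8 to 93.0 CPM in N_30, 29.2 to 33.1 CPM in N_28 and 63.3 to 91.6 CPM in control. In 4 epithelial genes the sum, mostly KRT8 and KRT18, was 570 to 602 CPM in N_30, 386 to 430 CPM in N_28 and 469 to 543 CPM in control. The other epithelial genes were low, with at most 6 counts per library for EPCAM and 17 to 51 for CDH1. Sums over 4 endothelial and 3 leukocyte genes were at most 2.70 and 0.538 CPM. The RGS5 and keratin levels differ between groups in the same libraries as the collagens below, and their part in those differences was not tested.

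Collagen transcripts made up 0.502 to 0.572% of all counts in N_30, 0.482 to 0.555% in N_28 and 0.475 to 0.558% in control libraries. Summed over the 44 genes the level was 5252 ± 364 CPM in N_30, 5159 ± 342 CPM in N_28 and 5082 ± 460 CPM in control (SD, n = 3 each). The groups overlapped, with 5006 to 5670 CPM in N_30, 4881 to 5541 CPM in N_28 and 4737 to 5604 CPM in control.

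A small number of chains carried most of the signal. COL6A3, COL18A1 and COL1A2 held 54.6 to 63.1% of the summed collagen CPM per kilobase in each library, and the leading 10 genes held 94.0 to 94.9%. COL6A3 averaged 170.5 CPM per kilobase over the 9 libraries, COL18A1 averaged 137 and COL1A2 119 on that scale. COL4A2 followed at 68.5 CPM per kilobase and the transmembrane collagen COL13A1 at 44.0. Of the 25 tested genes, 9 averaged at least 100 CPM and 9 averaged under 10 CPM.

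**Figure D1:**
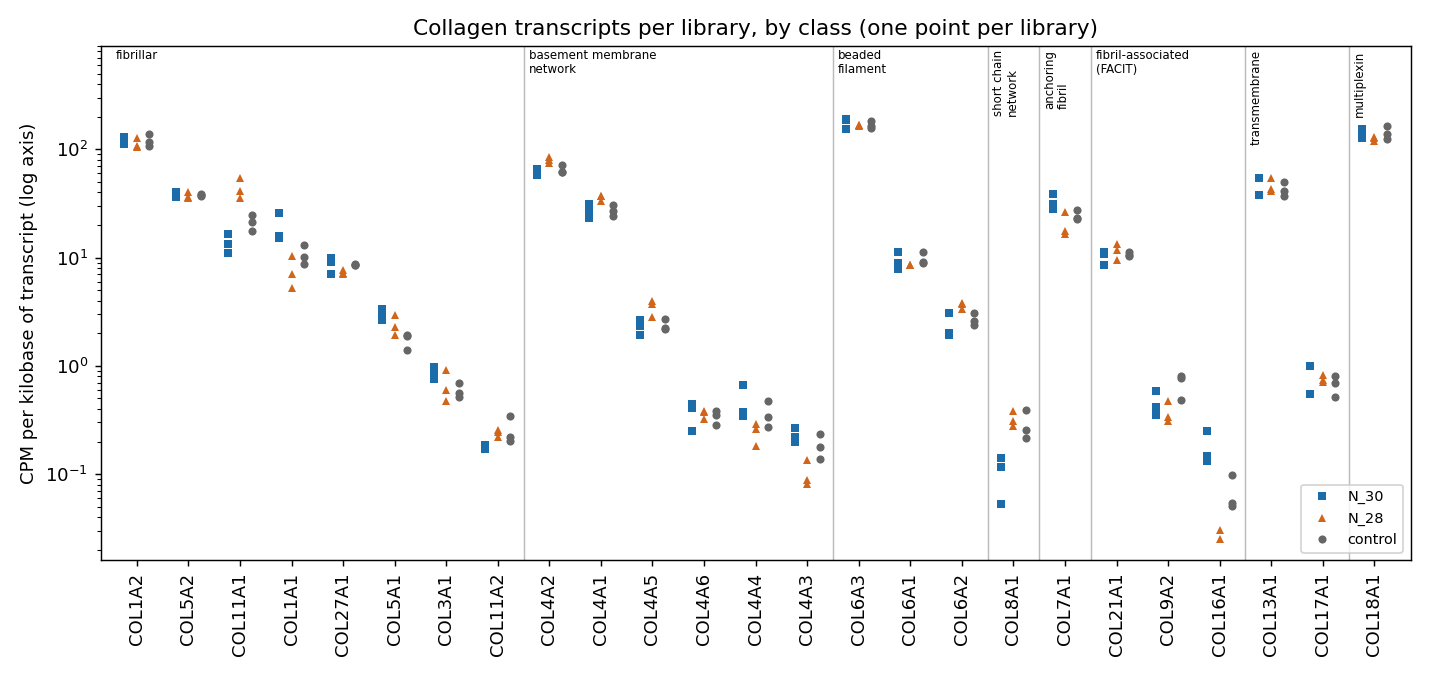
Level of the 25 tested collagen genes in each library, in CPM per kilobase of transcript on a log axis, grouped by collagen class; one point per library, with N_30 as squares, N_28 as triangles and control as circles. COL6A3, COL18A1 and COL1A2 stand highest, and 1 N_28 library without COL16A1 reads has no point.

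The leading genes COL6A3, COL18A1 and COL1A2 did not pass the test in any comparison. COL6A3, the long chain of type VI, was at 2044, 1998 and 1644 CPM in N_30, 1799, 1751 and 1802 CPM in N_28 and 1980, 1767 and 1707 CPM in control libraries. COL18A1 was at 1001, 841 and 1016 CPM in N_30, 777, 844 and 849 CPM in N_28 and 1086, 817 and 903 CPM in control. COL1A2, a chain of type I collagen, was at 698, 603 and 704 CPM in N_30, 563, 578 and 685 CPM in N_28 and 748, 576 and 634 CPM in control. The libraries of the groups overlapped for each of these genes. Their log2 fold changes against control were 0.06, 0.03 and 0.03 in N_30 and -0.03, -0.18 and -0.10 in N_28. COL18A1 shares 1401 exonic bases with SLC19A1 on the opposite strand, so without strand some of its reads may belong to that gene.

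The remaining 19 genes stayed below the filter on low counts, with at most 8 counts in any library and 230 counts in all libraries together. COL19A1 and COL22A1 had no reads. The fibrillar genes COL2A1 and COL5A3 had 2 counts each, COL24A1 had 20, and the beaded filament genes COL6A5 and COL6A6 had 5 each. Among the fibril-associated types, COL9A1 and COL14A1 had 3 counts each, COL20A1 24, COL12A1 33 and COL9A3 34. COL10A1 had 10 counts, COL15A1 9, COL23A1 7 and COL25A1 8. COL26A1 had 15, COL28A1 22 and COL8A2 28. At this depth 3 counts in a library equal 0.131 to 0.181 CPM. A fit with no filter on low counts called none of these genes in any comparison, and at such counts it could have missed differences.

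Chains that assemble into the same protein stood at unequal levels per length. COL1A1, the partner of COL1A2 in type I collagen, had 0.200, 0.141 and 0.116 times the COL1A2 level in N_30, 0.0506, 0.0658 and 0.0822 times in N_28 and 0.0951, 0.0824 and 0.0859 times in control. The N_30 ratios lay above all others and the N_28 ratios below all control ones. In type VI, whose monomer needs 3 different chains, COL6A1 had 0.0526 ± 0.00551 times the COL6A3 level in N_30, 0.0514 ± 0.000760 times in N_28 and 0.0573 ± 0.00298 times in control (SD, n = 3 each). COL6A2 had 0.0131 ± 0.00270 times that level in N_30, 0.0220 ± 0.00176 times in N_28 and 0.0159 ± 0.000852 times in control (n = 3 each). COL5A1 had 0.0767 ± 0.00447 times the COL5A2 level in N_30, 0.0634 ± 0.00936 times in N_28 and 0.0457 ± 0.00785 times in control (n = 3 each).

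**Figure D2:**
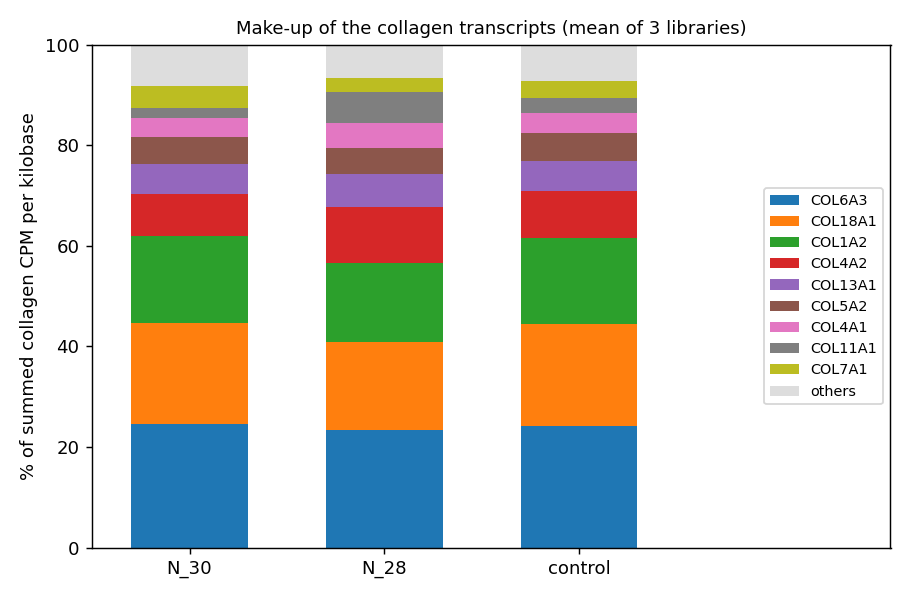
Share of the summed collagen CPM per kilobase held by the 9 leading genes and by all others, in percent, as the mean of 3 libraries for N_30, N_28 and control. COL11A1 takes a larger slice in N_28 (6.06%) than in N_30 (1.91%) or control (3.02%), and COL6A3 is the largest slice in each group.

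Most of the called differences lay between the knock-down sets. In N_30 against N_28, 5 of the 25 tested genes were higher and 6 lower, which is 44% of them. Of all genes tested, 18.3% were called there, 9.38% higher and 8.96% lower. COL16A1, 1 of the 5, passed the filter only through N_30. With a filter of a mean of at least 1 CPM, which it did not pass, 10 of 24 members were called, against 20.7% of all genes. In N_28 against control 4 rose and 0 fell, which is 16% of the tested members, against 10.2% of all genes, 4.49% higher and 5.75% lower. In N_30 against control 1 rose and 0 fell, against 0.866% of all genes, 0.459% higher and 0.406% lower. A fit of all 9 libraries with the replicate number as a block had 2 members higher (COL1A1 and COL5A1) in N_30 against control. It had 2 lower (COL8A1 and COL11A1), where 2.82% of all genes were called. The split in N_28 against control depended on the filter, on the groups fitted and on single libraries. It was 6 higher and 5 lower with no filter on low counts, where 6.57% of all genes were called. Without N_28 library 3 it was 1 higher and 2 lower (COL1A1 and COL7A1), against 7.5% of all genes. Without control library 3 it was 1 higher and 1 lower (COL9A2), against 7.93% of all genes. With only N_28 and control fitted it was 5 higher and 1 lower (COL27A1), against 10.5% of all genes. Without N_30 library 3 it was 4 higher and 1 lower (COL27A1), against 11.2%. COL11A1 alone was called without control library 2 or N_28 library 2, against 8.53 and 6.71% of all genes. At an unadjusted p under 0.05 the counts were 13 in N_30 against N_28, 10 in N_28 against control and 8 in N_30 against control, where 31.1, 23.9 and 11.4% of all genes passed. In that order, libraries of the groups did not overlap for 12, 10 and 8 of the 25 members, where this held for 36.4, 28.7 and 15.2% of all genes. The median absolute log2 change was 0.39 for the members in N_30 against N_28, 0.24 in N_28 against control and 0.23 in N_30 against control. Over all genes it was 0.16, 0.13 and 0.09. The comparisons against control share the control libraries.

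**Figure D3:**
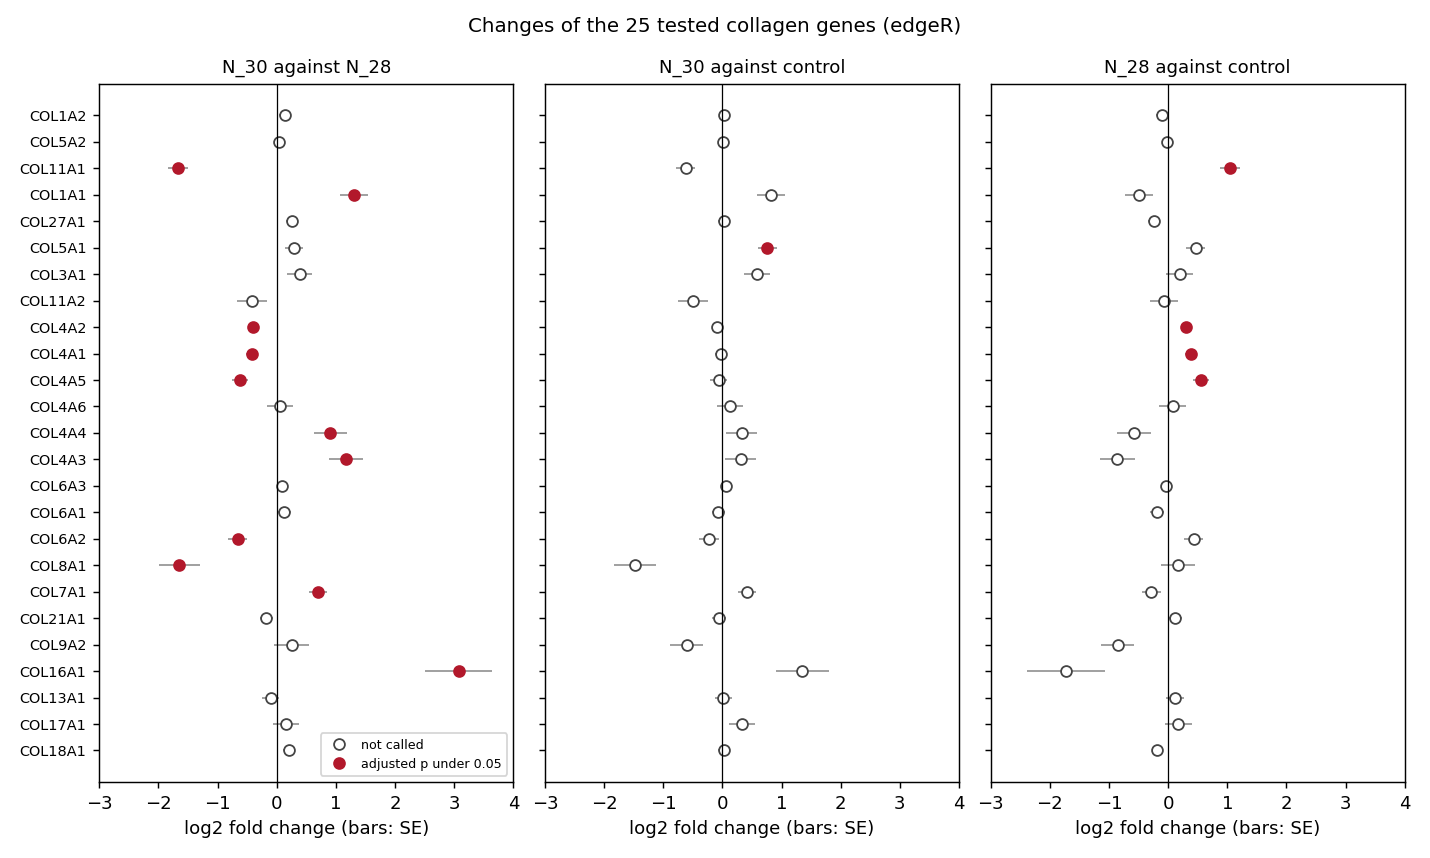
Log2 fold change of the 25 tested collagen genes with its SE, in N_30 against N_28, N_30 against control and N_28 against control; filled points have an adjusted p under 0.05 over all genes tested. The first panel holds 11 filled points, 5 to the right of 0 and 6 to the left, the second holds 1 and the third 4.

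Type IV collagen held the most called genes, 5 of its 6 members in N_30 against N_28, where 18.3% of all genes were called. In N_28 against control 3 were called (10.2% of all genes) and in N_30 against control 0 (0.866%). The type IV genes lie head to head as neighbouring pairs on chromosomes 13, 2 and X and are read outward from the stretch between them. Those stretches are shown because members of a pair moved in the same direction on chromosomes 13 and 2, and only COL4A5 was called on chromosome X. The sequences come from RefSeq on GRCh38.p14, plus strand, 5′ to 3′. They end at the base before the RefSeq start of COL4A2, COL4A3 and COL4A5. The gene spans given below are from GENCODE, where starts differ, and they overlap the stretches on chromosomes 13 and 2. Capitals mark CCAAT and the GC box GGGCGG on either strand, and TATAAA was searched as well.
COL4A1 and COL4A2, chr13:110307158-110307283: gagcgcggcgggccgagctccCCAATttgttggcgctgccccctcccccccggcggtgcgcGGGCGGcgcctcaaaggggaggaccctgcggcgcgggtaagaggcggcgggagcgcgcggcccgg
COL4A4 and COL4A3, chr2:227164374-227164623: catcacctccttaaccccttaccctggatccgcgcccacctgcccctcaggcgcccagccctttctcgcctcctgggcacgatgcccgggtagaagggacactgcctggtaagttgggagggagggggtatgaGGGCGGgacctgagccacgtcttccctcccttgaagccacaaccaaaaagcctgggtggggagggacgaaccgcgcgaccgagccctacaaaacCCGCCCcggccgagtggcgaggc
COL4A6 and COL4A5, chrX:108439588-108439837: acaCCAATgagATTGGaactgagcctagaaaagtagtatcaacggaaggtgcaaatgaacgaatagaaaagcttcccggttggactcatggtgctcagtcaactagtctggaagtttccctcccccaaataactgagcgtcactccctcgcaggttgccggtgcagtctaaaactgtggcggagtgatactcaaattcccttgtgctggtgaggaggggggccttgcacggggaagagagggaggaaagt

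The first stretch is the whole of the 126 bases between the RefSeq starts of COL4A1 and COL4A2, and the others are the 250 bases next to the plus-strand gene, out of 418 bases between the starts of COL4A4 and COL4A3 and 379 between those of COL4A6 and COL4A5. The COL4A1 and COL4A2 stretch held 1 CCAAT and 1 GC box, the COL4A3 stretch 2 GC boxes and the COL4A5 stretch 2 CCAAT. None held TATAAA. Of 27305 RefSeq promoters, 21.9% held CCAAT and 34.6% a GC box in the 126 bases before the start, and 33.0% and 42.3% did in 250 bases. TATAAA was in 6.23 and 11.1% of them. GC content was 80.2% in the first stretch, 66.4% in the second and 51.2% in the third, beside medians of 59.5% over 126 bases and 58% over 250.

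COL4A1 and COL4A2, the chains of the basement membrane network found in nearly all tissues, were higher in N_28. COL4A1 (chromosome 13, 110148963 to 110307233, minus strand) was at 206, 174 and 153 CPM in N_30, 219, 243 and 247 CPM in N_28 and 202, 179 and 161 CPM in control libraries. COL4A2 (chromosome 13, 110305812 to 110513209, plus strand) was at 424, 383 and 377 CPM in N_30, 488, 518 and 547 CPM in N_28 and 468, 399 and 396 CPM in control. For both genes every N_28 library lay above every other library, while N_30 and control overlapped. The annotated spans of the pair overlap at their starts, and their exons do not. In N_28 against control COL4A1 rose by 0.39 (SE 0.10, adjusted p = 0.0269) and COL4A2 by 0.30 (SE 0.07, adjusted p = 0.0209) on the log2 scale by edgeR's quasi-likelihood test. In N_30 against N_28 COL4A1 was lower by 0.42 (log2 change -0.42, SE 0.10, adjusted p = 0.0121) and COL4A2 by 0.39 (log2 change -0.39, SE 0.08, adjusted p = 0.00250). Their ratio per length stayed at 0.440 ± 0.0402 in N_30, 0.448 ± 0.0111 in N_28 and 0.421 ± 0.0213 in control (n = 3 each). Other genes of chromosome 13 moved in the same direction, with a median log2 change of 0.17 in N_28 against control and -0.26 in N_30 against N_28 over 164 genes. Within 5 megabases of COL4A1 and COL4A2 the medians over 25 genes were 0.14 and -0.16. The part of this shift in the collagen changes was not tested.

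COL4A3 and COL4A4, chains known from the basement membrane of the kidney glomerulus, ran the other way at low levels. COL4A3 (chromosome 2, 227164565 to 227314792, plus strand) was at 2.17, 1.61 and 1.78 CPM in N_30, 0.722, 1.10 and 0.655 CPM in N_28 and 1.91, 1.43 and 1.12 CPM in control. COL4A4 (chromosome 2, 227002711 to 227164453, minus strand) was at 6.62, 3.77 and 3.47 CPM in N_30, 2.60, 2.91 and 1.83 CPM in N_28 and 4.74, 2.71 and 3.41 CPM in control. For both genes every N_30 library lay above every N_28 library. In N_30 against N_28 COL4A3 was higher by 1.17 (SE 0.29, adjusted p = 0.0118) and COL4A4 by 0.91 (SE 0.28, adjusted p = 0.0370) by the same test. Against control, COL4A3 had log2 changes of 0.31 in N_30 and -0.86 in N_28 and COL4A4 of 0.33 and -0.58, and none passed. Leaving out N_30 library 1 took COL4A4 to a log2 change of 0.58 (adjusted p = 0.163), and it missed the threshold without N_28 library 1, 2 or 3 too (adjusted p = 0.0735, 0.0557 and 0.135). COL4A3 had an adjusted p of 0.0536 without N_28 library 3.

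**Figure D4:**
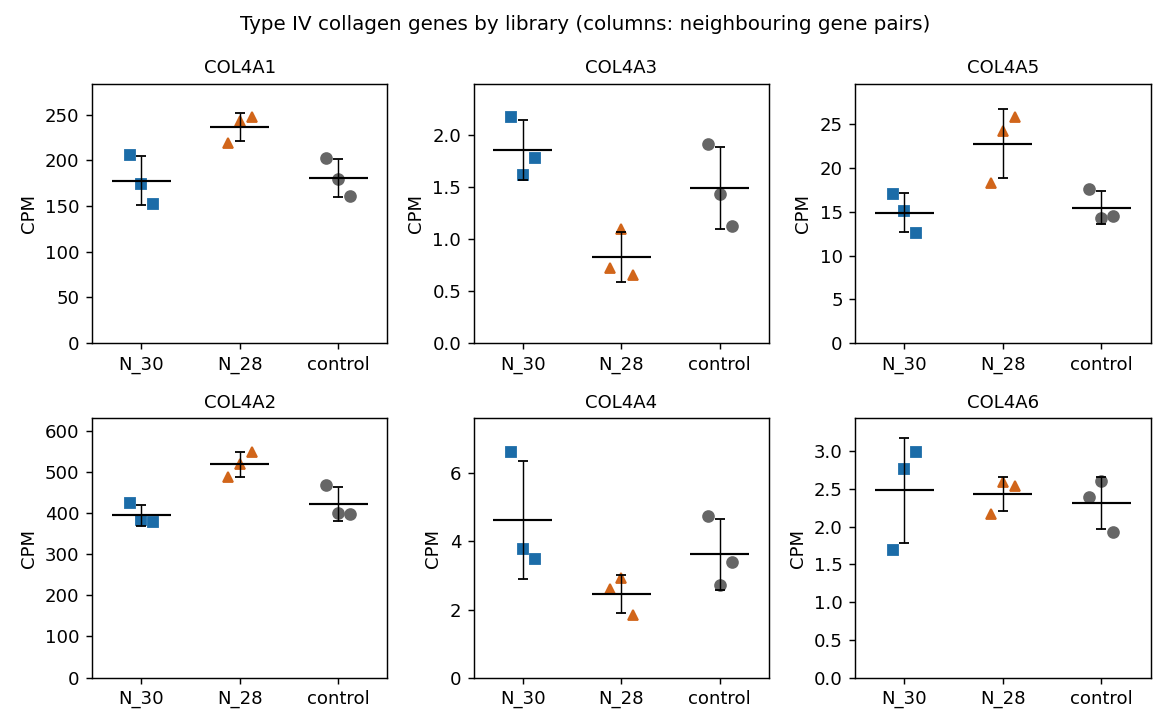
Type IV collagen genes in CPM by library, from replicate 1 at the left to replicate 3 at the right of each group, with the mean and SD over 3 libraries; each column of panels is a neighbouring gene pair. COL4A1, COL4A2 and COL4A5 are highest in N_28, the means of COL4A3 and COL4A4 are lowest there, and COL4A6 overlaps across groups.

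COL4A5 and COL4A6 did not move as a pair. COL4A5 (chromosome X, 108439844 to 108697545, plus strand) was at 17.0, 15.1 and 12.6 CPM in N_30, 18.3, 24.3 and 25.8 CPM in N_28 and 17.7, 14.3 and 14.5 CPM in control. Every N_28 library lay above all others. It rose by 0.56 in N_28 against control (SE 0.14, adjusted p = 0.0207), and in N_30 against N_28 it had a log2 change of -0.62 (SE 0.14, adjusted p = 0.00770), by edgeR's test. COL4A6 was at 2.48 ± 0.696 CPM in N_30, 2.43 ± 0.227 CPM in N_28 and 2.31 ± 0.347 CPM in control (n = 3 each), with log2 changes of 0.05, 0.13 and 0.08 in the comparisons of N_30 with N_28, N_30 with control and N_28 with control. The calls of COL4A1, COL4A2 and COL4A5 in N_28 against control were each lost without control library 2 or 3 or N_28 library 2 or 3. Adjusted p then ran from 0.0661 to 0.0982 for COL4A1, from 0.0681 to 0.0850 for COL4A2 and from 0.0683 to 0.0876 for COL4A5, with log2 changes of at least 0.31, 0.26 and 0.46.

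COL11A1, a chain of type XI collagen that forms thin fibrils in cartilage, had the largest difference in level among the abundant collagens. COL11A1 (chromosome 1, 102876467 to 103108872, minus strand) was at 98.7, 80.8 and 122 CPM in N_30, 258, 304 and 397 CPM in N_28 and 155, 128 and 181 CPM in control. No library of 1 group overlapped with those of another, and N_30 was lowest and N_28 highest. It rose by 1.05 in N_28 against control (SE 0.17, adjusted p = 0.00104), and its log2 change was -1.67 in N_30 against N_28 (SE 0.17, adjusted p = 1.54e-05), by edgeR's quasi-likelihood test. These calls held under all 16 alternatives tried. In N_30 against control the log2 change of -0.62 (SE 0.17) had an adjusted p of 0.122, and of 0.000238 with the replicate number as a block. The 17 genes within 5 megabases had median changes of -0.00477 in N_28 against control and -0.033 in N_30 against N_28. COL11A2, another chain of type XI, was at 1.16 ± 0.0484 CPM in N_30, 1.55 ± 0.107 CPM in N_28 and 1.64 ± 0.487 CPM in control (n = 3 each) and was not called.

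COL1A1 (chromosome 17, 50183289 to 50201632, minus strand) ran opposite to COL11A1. It was at 174, 106 and 102 CPM in N_30, 35.4, 47.3 and 70.0 CPM in N_28 and 88.4, 59.1 and 67.7 CPM in control. All N_30 libraries lay above all others, with N_30 library 1 highest, while N_28 library 3 lay within the control range. COL1A1 was higher in N_30 than in N_28 by 1.31 (SE 0.24, adjusted p = 0.00163) by edgeR's test. Against control its log2 change was 0.82 (SE 0.23, adjusted p = 0.148) in N_30 and -0.49 (SE 0.24, adjusted p = 0.227) in N_28. With the replicate number as a block the N_30 change of 0.82 had an adjusted p of 0.0223.

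COL5A1, a chain of type V collagen that helps to start fibrils, was the 1 member called in N_30 against control. COL5A1 (chromosome 9, 134641774 to 134844843, plus strand) was at 28.2, 24.3 and 22.5 CPM in N_30, 16.4, 19.5 and 25.1 CPM in N_28 and 15.8, 11.8 and 16.5 CPM in control. Every N_30 library lay above every control library, while N_28 overlapped with both. COL5A1 rose by 0.76 in N_30 against control (SE 0.16, adjusted p = 0.0348) by edgeR's test. Its log2 change was 0.47 (adjusted p = 0.0777) in N_28 against control and 0.29 (adjusted p = 0.206) in N_30 against N_28. The change in N_28 against control was called by DESeq2, with the replicate block, with no filter on low counts and without N_28 library 1. The call in N_30 against control was lost without N_30 library 1 or 2 (adjusted p = 0.140 and 0.110) and without N_28 library 2 (0.0633). It was also lost without control library 1, 2 or 3 (0.0781, 0.104 and 0.0560). Log2 changes in these fits were 0.62 to 0.85.

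Other fibrillar genes were not called. COL5A2, the abundant chain of type V, was at 272 ± 16.2 CPM in N_30, 266 ± 19.4 CPM in N_28 and 269 ± 5.81 CPM in control (n = 3 each), with log2 changes of at most 0.03 in size. COL27A1 was at 68.1 ± 11.8 CPM in N_30, 56.6 ± 2.42 CPM in N_28 and 67.0 ± 1.14 CPM in control (n = 3 each), and each N_28 library lay below each control library. Its log2 change was -0.24 in N_28 against control (adjusted p = 0.146, edgeR). It was called lower there with only these groups fitted, with no filter and without N_30 library 3. In N_30 against N_28 it was called higher with the replicate block, with no filter and without N_30 library 3. COL3A1, which joins type I in many fibrils, was low at 4.88 ± 0.611 CPM in N_30, 3.69 ± 1.28 CPM in N_28 and 3.27 ± 0.490 CPM in control (n = 3 each).

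**Figure D5:**
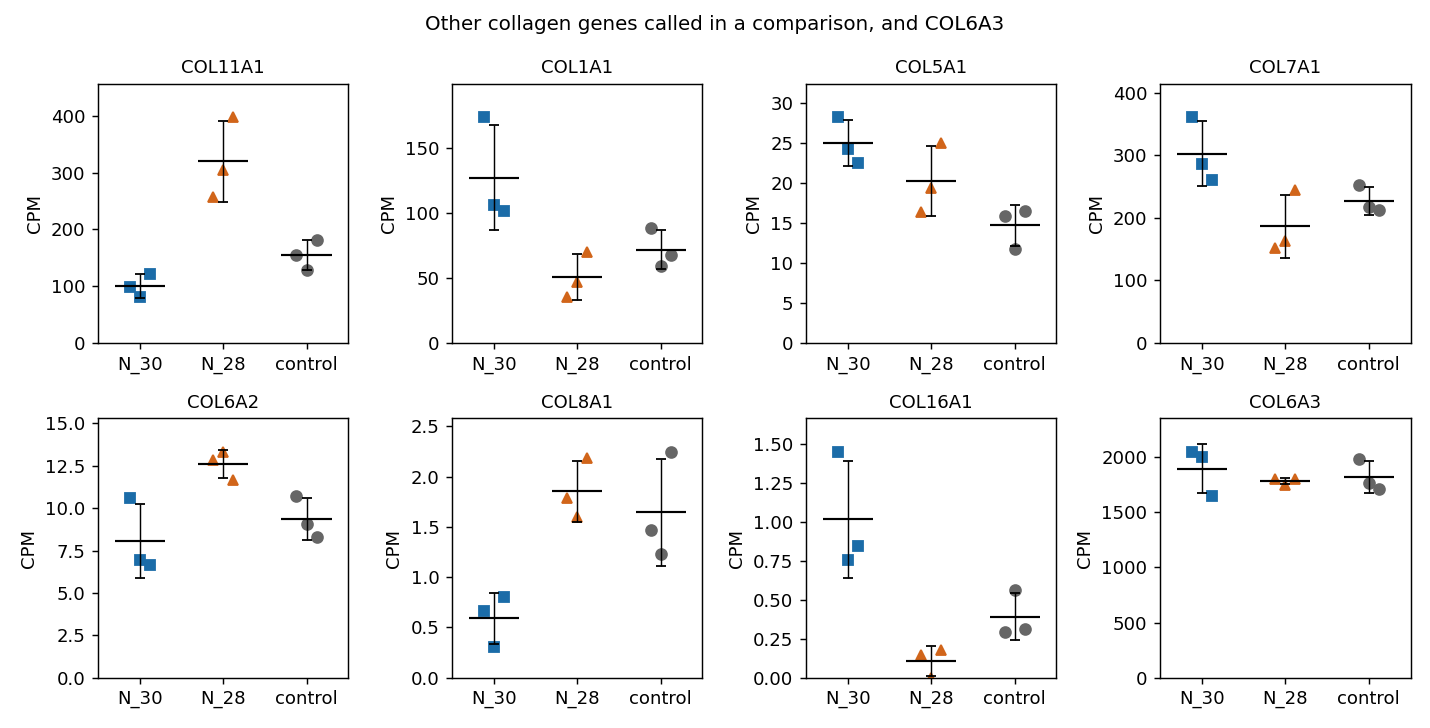
Collagen genes outside type IV that were called in at least 1 comparison, and the most abundant gene COL6A3, in CPM by library, from replicate 1 at the left to replicate 3 at the right of each group, with the mean and SD over 3 libraries. COL11A1, COL6A2 and COL8A1 are higher in N_28 than in N_30, and COL1A1, COL7A1 and COL16A1 are lower there.

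COL7A1, which forms the fibrils that anchor the epidermis to the dermis, was among the abundant members. COL7A1 (chromosome 3, 48564073 to 48595267, minus strand) was at 361, 287 and 260 CPM in N_30, 152, 163 and 245 CPM in N_28 and 253, 217 and 212 CPM in control. All N_30 libraries lay above all others, and N_28 library 3 lay within the control range. It was higher in N_30 than in N_28 by 0.69 (SE 0.16, adjusted p = 0.00721) by edgeR's test, and did not pass against control, with log2 changes of 0.41 in N_30 and -0.28 in N_28.

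In type VI, COL6A2 alone was called. COL6A2 (chromosome 21, 46098097 to 46132849, plus strand) was at 10.6, 6.94 and 6.63 CPM in N_30, 12.9, 13.3 and 11.7 CPM in N_28 and 10.7, 9.04 and 8.30 CPM in control. Every N_28 library lay above all others. Its log2 change was -0.66 in N_30 against N_28 (SE 0.16, adjusted p = 0.0111) by edgeR's test, with an adjusted p of 0.0534 without N_30 library 2. Against control COL6A2 did not pass, with log2 changes of 0.43 in N_28 (adjusted p = 0.103) and -0.23 in N_30 (adjusted p = 0.666) by the same test. The N_28 change was called with the replicate number as a block (adjusted p = 0.0174, edgeR). So it was with only N_28 and control fitted, with no filter on low counts and without N_30 library 1. COL6A1 was at 39.4 ± 7.30 CPM in N_30, 36.1 ± 0.273 CPM in N_28 and 41.2 ± 5.44 CPM in control (n = 3 each), with log2 changes between -0.19 and 0.12.

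The short chain network gene COL8A1 and the fibril-associated gene COL16A1 were called at low counts. COL8A1 (chromosome 3, 99638475 to 99799226, plus strand), known from vessel walls and the cornea, had 11, 6 and 18 counts in N_30, 37, 29 and 50 in N_28 and 30, 24 and 50 in control. It was at 0.588 ± 0.258 CPM in N_30, 1.85 ± 0.301 CPM in N_28 and 1.65 ± 0.531 CPM in control (n = 3 each), with N_30 below all others. Its log2 change was -1.64 in N_30 against N_28 (SE 0.34, adjusted p = 0.00456) by edgeR's test. In N_30 against control it was -1.48 (adjusted p = 0.0705), or -1.49 with an adjusted p of 0.00915 with the replicate number as a block.

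COL16A1 (chromosome 1, 31652247 to 31704319, minus strand) had 24, 15 and 19 counts in N_30, 3, 0 and 4 in N_28 and 6, 11 and 7 in control. The groups did not overlap, with N_30 highest and N_28 lowest. All counts were low, and those of N_28 lay at or near the floor of 3. The fitted log2 change was 3.08 in N_30 against N_28 (SE 0.56, adjusted p = 0.00189) by edgeR's test. The gene passed the filter only through N_30, the group where it was highest, so this p is no independent support for the difference. Against control it was 1.35 in N_30 and -1.72 in N_28 and did not pass. Of the other fibril-associated genes, COL21A1 was at 44.3 ± 6.38 CPM in N_30, 49.9 ± 8.24 CPM in N_28 and 46.3 ± 2.25 CPM in control. COL9A2 was at 1.30 ± 0.349 CPM in N_30, 1.07 ± 0.253 CPM in N_28 and 1.96 ± 0.499 CPM in control (n = 3 each), and neither was called.

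The transmembrane collagens were not called in any comparison. COL13A1, found at cell junctions, was at 137 ± 31.0 CPM in N_30, 147 ± 23.4 CPM in N_28 and 136 ± 21.1 CPM in control (n = 3 each). Library 3 was the highest of each group, at 173, 174 and 159 CPM, while the other libraries lay between 118 and 136 CPM. COL17A1, a part of hemidesmosomes, was at 4.84 ± 1.49 CPM in N_30, 4.30 ± 0.327 CPM in N_28 and 3.82 ± 0.823 CPM in control (n = 3 each).

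Genes that modify, export, join or bind collagen were read by list, with at most 2 members of a list called in 1 direction. Beside the counts below, the shares of all genes called were 9.38% higher and 8.96% lower in N_30 against N_28, 4.49% higher and 5.75% lower in N_28 against control, and 0.459% higher and 0.406% lower in N_30 against control. Of 9 genes of prolyl hydroxylation, 0 were called against control and P3H3 was lower in N_30 than in N_28 (log2 change -0.48, adjusted p = 0.00502, edgeR). Of 5 genes of lysyl hydroxylation and glycosylation, COLGALT2, which adds sugar to hydroxylysine, fell in N_30 against control (-0.60, adjusted p = 0.0256, edgeR). In N_30 against N_28 COLGALT2 was lower (-0.93), and the lysyl hydroxylases PLOD1 (0.19) and PLOD3 (0.19) were higher. Of 9 genes of folding and export, the collagen chaperone FKBP10 rose in N_28 against control (0.70, adjusted p = 0.00833, edgeR), and SEC23A of the export coat was lower in N_30 than in N_28 (-0.24).

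Of 8 genes of procollagen processing 4 were tested, and 2 of them were lower in N_28 than in control (5.75% of all genes were) and higher in N_30 than in N_28 (9.38% of all genes were). ADAMTS3, which cuts procollagen, was at 9.90 ± 0.695 CPM in N_30, 6.14 ± 0.707 CPM in N_28 and 10.9 ± 0.545 CPM in control (n = 3 each), with log2 changes of -0.84 in N_28 against control and 0.69 in N_30 against N_28. The proteinase BMP1 had changes of -0.35 (adjusted p = 0.0499) and 0.46. Of 5 crosslinking genes, LOXL4 fell in N_28 against control (-0.99) and was higher in N_30 than in N_28 (1.10), as was LOXL2 (0.22). Among 6 tested collagen receptors of 10, ITGA10 rose (0.86) and ITGA1 fell (-0.74) in N_28 against control, and in N_30 against N_28 they ran at -1.21 and 0.59. MMP14, a membrane protease that cleaves collagen, fell in N_28 against control (-0.37), 1 of 5 tested of 8 degradation genes. Of 3 tested fibril partners, SPARC fell in N_28 against control (-0.32), and the proteoglycan BGN rose in N_28 (1.48) and in N_30 (0.89). In N_30 against N_28 BGN was lower (-0.59) and SPARC higher (0.40).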

How the data were processed

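The authors deposited unnormalized counts for 9 libraries, with human Ensembl gene identifiers as rows. The only genome build in the submitters' processing notes is mm8, a mouse build. No aligner, counter, annotation or strand setting is named in the sources used here. A table of gene names supplied 56434 symbols, and GENCODE release 29 another 434. Positions and transcript lengths (the longest basic protein-coding transcript) are from GENCODE release 29 on GRCh38. Members, gene lists and tests were chosen with earlier results of these data known.

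Counts were fitted in edgeR 4.0.16 (R 4.3.3) over all 9 libraries with TMM scaling, a term per group and a filter with a minimum count of 10, with calls at an adjusted p below 0.05 (Benjamini-Hochberg) over 15019 genes. The fit was run on simulated data with known changes in N_28. The simulation gave every gene the same spread and had no effect of the replicate number. It therefore checks the code and cannot show how well the fit suits these libraries. The SE is the log2 change over the root of its F statistic. The floor of 3 counts covers counting error only. Members called in at least 1 comparison and the 3 highest per length are given by library, other members by level, and pathway lists by counts with up to 4 called genes of lowest adjusted p. Libraries with the same number in N_30 and control deviated together (correlations of 0.122, 0.169 and 0.306), so blocked values stand beside that comparison where a call changes. The blocked fit held all 9 libraries, those of N_28 included, and is not a test paired between N_30 and control alone. Within groups, chi-square per gene between libraries was 3.43 to 11.7, more than counting noise, so each was counted as 1 replicate. Alternatives were DESeq2 1.42.0, other scalings and filters, fewer groups, the block and leaving out each library.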

Additional observations from a re-analysis of the deposited data

Results flagged for a closer look

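The effects of the knock-down sets differed by the test of the difference itself, N_30 against N_28 in edgeR, for 11 collagen genes. This is 44% of the 25 tested members, where 18.3% of all genes were called. The difference of N_30 minus N_28 on the log2 scale was positive for COL16A1 (3.08), COL1A1 (1.31), COL4A3 (1.17), COL4A4 (0.91) and COL7A1 (0.69). It was negative for COL11A1 (-1.67), COL8A1 (-1.64), COL6A2 (-0.66), COL4A5 (-0.62), COL4A1 (-0.42) and COL4A2 (-0.39). COL16A1 passed the filter only through its N_30 libraries, where it was highest. Groups of 3 libraries are too small for a check of single libraries that stand apart.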

How the results depend on the processing

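The 16 called gene changes were recomputed under 16 alternatives, which gave 255 values, since COL16A1 was not tested with a mean of at least 1 CPM. None of the 255 changed sign, 231 stayed past the threshold and 24 did not, all 24 with a library left out. Many of the 255 are near repeats, as leaving out a library of the group outside a comparison hardly moves the log2 change. An unchanged sign was likely from the start in genes chosen because they were called. The 11 members called in N_30 against N_28 were 10 to 12 with a library left out, the 4 in N_28 against control 1 to 5, and the 1 in N_30 against control 0 to 3. Of all genes 12.1 to 19.1, 6.35 to 11.2 and 0.378 to 1.18% were called in these fits, in that order. The 1 in N_28 against control that held throughout was COL11A1. With no filter on low counts the calls were 11 in N_28 against control (6 higher, 5 lower) and 5 in N_30 against control. Of 29921 genes, 6.57 and 1.75% were called there, and the cause of the change was not tested. DESeq2 gave 2 in N_30 against control, COL5A1 and COL8A1, where 1.81% of all genes were called. With the replicate block this comparison had 4, adding COL1A1, COL8A1 (lower) and COL11A1 (lower). N_28 against control had 6, adding COL5A1 and COL6A2, and N_30 against N_28 had 12, adding COL27A1. The block called 2.82, 15.3 and 24.5% of all genes, in that order. The numbers are not read as pairing N_28 with control (correlations of -0.0588 to 0.142, with 3 of 6 libraries closest to their own number) or with N_30 (-0.0253 to 0.235, 2 of 6). The blocked fit put the N_28 libraries in these blocks all the same, which limits its p-values in each comparison. Over all genes, calls in N_28 against control numbered 967 without N_28 library 1, beside 1538 with it. In N_30 against control they numbered 130, with 58 without N_30 library 2, 71 without N_30 library 1, 78 without control library 3, 267 by DESeq2, 523 without a filter and 424 with the block. Low counts limit COL16A1, COL8A1 and the 19 untested members, and levels per length depend on the transcript chosen.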

Other observations

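The table also holds 10 rows named after collagen genes that are antisense, divergent or pseudogene transcripts. COL18A1-AS1, named as antisense to COL18A1, was the 1 of them that entered the test, with 11, 4 and 19 counts in N_30, 24, 30 and 28 counts in N_28 and 7, 11 and 21 counts in control libraries. Each N_28 library lay above all others, but the log2 change was 1.09 in N_28 against control (adjusted p = 0.118) and -1.21 in N_30 against N_28 (adjusted p = 0.0643) by edgeR's quasi-likelihood test, and neither passed. COL18A1 itself had a log2 change of -0.18 in N_28 against control, which did not pass.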
